A study of Mus musculus with 3 samples.

Results

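The regions described here are 6779 stretches of mouse DNA, each 1 kb long and more than 2 kb from any annotated transcription start site (TSS), that were more open in the nuclei of embryonic neurons than in nuclei of other embryonic tissues. They were chosen by measured values. The autosomes were divided into 1 kb bins, and fragments of single-nucleus ATAC-seq (snATAC-seq) were counted in each bin. Levels are in FPM, the fragments in a bin per 1000000 fragments of the same nuclei. A bin was eligible if at least 40 fragments came from neuron clusters 0 and 6 pooled. It became a member if the FPM of clusters 0 and 6 was at least 3 times that of clusters 1, 5, 7, 8 and 10 pooled, with 0.1 FPM added to both. Of 2132295 distal autosomal bins, 34849 were eligible, and the members made up 19.5% of these. That the members were higher in clusters 0 and 6 therefore follows from how they were chosen.

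The nuclei came from C57BL/6JRj wild-type (WT) embryos, littermates of those used for the study's spatial maps. A single library was made from E12.5 embryos, 1 from E13.5 and 1 from E15.5 (days of development). The labels name no allele or agent, and stage is the labelled difference between libraries. The frozen sections behind the nuclei held many tissues, and neither the sources nor the labels tie a library to a number of embryos, so stage and library cannot be told apart. No difference below was tested: the spread between embryos is unknown, and the intervals given are exact 95% intervals that cover counting error only.

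Distal open regions include enhancers, short DNA elements bound by transcription factors that raise the activity of a gene, sometimes over long distances. The transposase Tn5 inserts adapters preferentially where nucleosomes are absent, so dense insertions mark such elements as well as insulators and unannotated promoters. In developing neurons, proneural factors of the basic helix-loop-helix class bind E-boxes, and factors of the homeodomain, POU, SOX and RFX families bind other short motifs. Inhibitory (GABAergic) and excitatory (glutamatergic) neurons use partly different sets of such elements, and progenitors lose some of them and gain others as they become neurons.

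The cluster numbers are those of the deposited cell table and were compared with lists of marker genes, by the fragments within each gene and its upstream 2 kb. Cluster 0 (11, 87 and 172 nuclei by rising stage) had 18 of 19 neuron markers and 7 of 12 GABAergic markers at least 1.5-fold above the other clusters, with 1 of 6 glutamatergic and 1 of 9 neural progenitor markers. Cluster 6 (5, 76 and 50 nuclei in the same order) had 11 of 19 neuron markers, all 6 glutamatergic markers, 1 of 12 GABAergic markers and 3 of 9 neural progenitor markers raised to that degree. Cluster 9 (11, 50 and 20 nuclei) had all 9 neural progenitor markers raised, 2 of 6 glutamatergic markers, 2 of 12 GABAergic markers and 2 of 19 neuron markers. None of the 7 mesenchyme, 7 muscle, 7 erythroid, 5 endothelial, 5 epithelial, 4 white blood cell or 4 Schwann cell markers was raised in clusters 0, 6 or 9, and 1 of 5 liver markers was raised in each of clusters 0 and 9. Their summed levels were not at 0: the mesenchyme list summed to 137.7 FPM in cluster 0 against 448.8 in cluster 1. Clusters 7 and 8 each mixed several cell types, so the comparison is with a blend of tissues rather than with a defined cell. Depth differed: the E12.5, E13.5 and E15.5 libraries gave 1214867, 6392603 and 11713285 fragments in cluster 0, 450324, 5964243 and 3115959 in cluster 6, and 1285439, 3924334 and 1482285 in cluster 9. Of the nuclei in these clusters, 5 in cluster 0 and 1 in cluster 9 shared at least 10% of their fragments with another barcode, and 1 barcode sequence occurred in more than 1 library.

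The sequences of 11 member windows are shown because they head the comparisons below. Each window is 300 bp of mm10 (read from the GRCm38 RefSeq assembly, plus strand) centred on the 100 bp with the most insertions of clusters 0 and 6, and it can reach past the edge of its bin. Capitals mark matches, on either strand, to the E-box CAGCTG, the E-box CAGATG, the E-box CATATG, the homeodomain core TAATTA, the POU octamer ATGCAAAT and the RFX motif GTTGCCA. The first pair had the most and second most fragments of all members, the next pair had the highest ratios of cluster 0 over cluster 6, and the pair after that had the highest ratios of cluster 6 over cluster 0. Then follow the members highest and lowest in cluster 9 relative to the neurons, a pair with the highest ratio of E15.5 over E13.5 in cluster 0, and the member with the highest opposite ratio.
Snx10 window (chr6:51592321-51592620): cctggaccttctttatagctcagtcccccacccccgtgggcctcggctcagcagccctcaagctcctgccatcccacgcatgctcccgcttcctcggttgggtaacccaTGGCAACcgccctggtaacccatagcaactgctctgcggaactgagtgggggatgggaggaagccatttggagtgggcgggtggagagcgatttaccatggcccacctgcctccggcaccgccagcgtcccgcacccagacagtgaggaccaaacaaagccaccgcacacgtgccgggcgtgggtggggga
Tob1 window (chr11:94160421-94160720): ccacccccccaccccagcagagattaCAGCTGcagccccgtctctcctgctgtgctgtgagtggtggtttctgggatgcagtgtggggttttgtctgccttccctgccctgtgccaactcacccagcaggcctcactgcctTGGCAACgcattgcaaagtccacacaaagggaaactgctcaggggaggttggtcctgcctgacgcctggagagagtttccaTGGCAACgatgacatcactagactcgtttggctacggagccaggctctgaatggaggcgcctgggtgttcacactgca
Rph3a window (chr5:121016441-121016740): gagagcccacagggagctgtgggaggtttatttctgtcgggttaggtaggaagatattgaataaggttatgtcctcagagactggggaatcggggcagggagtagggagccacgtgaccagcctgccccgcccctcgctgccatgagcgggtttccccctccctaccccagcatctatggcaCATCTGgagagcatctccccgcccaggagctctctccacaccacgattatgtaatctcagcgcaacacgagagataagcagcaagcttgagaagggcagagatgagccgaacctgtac
Actr3 window (chr1:125351471-125351770): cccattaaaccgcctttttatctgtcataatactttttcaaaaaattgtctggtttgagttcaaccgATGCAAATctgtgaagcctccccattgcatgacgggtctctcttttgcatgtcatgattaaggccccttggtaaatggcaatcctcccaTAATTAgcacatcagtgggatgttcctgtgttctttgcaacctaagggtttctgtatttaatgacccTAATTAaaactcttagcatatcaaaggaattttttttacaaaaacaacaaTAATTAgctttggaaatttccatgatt
Pou3f3 window (chr1:42006301-42006600): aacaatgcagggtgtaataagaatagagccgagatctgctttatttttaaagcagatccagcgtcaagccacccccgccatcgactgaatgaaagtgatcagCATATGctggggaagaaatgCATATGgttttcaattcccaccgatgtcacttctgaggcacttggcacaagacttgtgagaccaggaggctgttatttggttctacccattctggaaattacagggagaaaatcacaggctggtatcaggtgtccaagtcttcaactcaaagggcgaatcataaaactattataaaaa
Negr1 window (chr3:156591211-156591510): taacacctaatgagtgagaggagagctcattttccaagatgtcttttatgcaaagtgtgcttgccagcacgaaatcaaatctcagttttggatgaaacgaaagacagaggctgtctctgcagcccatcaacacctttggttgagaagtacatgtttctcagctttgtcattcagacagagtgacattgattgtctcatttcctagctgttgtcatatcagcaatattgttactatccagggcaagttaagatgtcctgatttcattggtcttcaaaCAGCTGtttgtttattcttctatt
Pou3f3 window (chr1:41814431-41814730): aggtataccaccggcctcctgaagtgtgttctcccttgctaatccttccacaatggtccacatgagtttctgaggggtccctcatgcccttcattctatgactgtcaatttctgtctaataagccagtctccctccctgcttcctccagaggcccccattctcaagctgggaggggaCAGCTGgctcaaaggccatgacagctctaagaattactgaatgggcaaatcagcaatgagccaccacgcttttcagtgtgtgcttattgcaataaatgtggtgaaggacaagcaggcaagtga
Nectin1 window (chr9:43699901-43700200): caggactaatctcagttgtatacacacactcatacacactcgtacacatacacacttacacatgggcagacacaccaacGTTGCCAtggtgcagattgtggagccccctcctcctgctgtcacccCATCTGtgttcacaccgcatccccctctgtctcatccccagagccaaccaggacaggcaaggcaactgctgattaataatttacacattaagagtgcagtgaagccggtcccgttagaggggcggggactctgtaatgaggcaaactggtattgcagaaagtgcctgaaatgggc
Nbea window (chr3:55741401-55741700): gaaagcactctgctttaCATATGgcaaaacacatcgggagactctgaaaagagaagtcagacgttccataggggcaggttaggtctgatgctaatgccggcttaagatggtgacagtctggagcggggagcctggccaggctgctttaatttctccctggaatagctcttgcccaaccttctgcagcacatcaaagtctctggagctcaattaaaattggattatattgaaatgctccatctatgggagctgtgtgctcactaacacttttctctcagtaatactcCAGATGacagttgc
Phyhipl window (chr10:70789081-70789380): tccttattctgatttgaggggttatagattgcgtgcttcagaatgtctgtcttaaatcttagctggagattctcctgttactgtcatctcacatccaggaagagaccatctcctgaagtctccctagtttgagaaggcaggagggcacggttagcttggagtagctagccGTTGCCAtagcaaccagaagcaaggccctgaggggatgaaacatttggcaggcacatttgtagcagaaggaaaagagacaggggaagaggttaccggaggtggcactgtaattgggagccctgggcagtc
Vrk1 window (chr12:105929041-105929340): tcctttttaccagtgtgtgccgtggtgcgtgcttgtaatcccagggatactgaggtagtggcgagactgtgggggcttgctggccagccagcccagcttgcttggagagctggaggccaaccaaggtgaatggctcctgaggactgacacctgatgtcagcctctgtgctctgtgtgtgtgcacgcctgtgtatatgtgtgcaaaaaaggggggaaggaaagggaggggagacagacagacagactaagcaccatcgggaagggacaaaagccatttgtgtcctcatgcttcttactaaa

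The members were spread over 5676 separate regions, since 4770 stood alone, 755 regions joined 2 touching bins and 151 joined 3 or more, up to 7 bins. The median member held 59 fragments of clusters 0 and 6 (range 40 to 531), from a median of 41 of the 401 neuron nuclei. Its level was 2.04 FPM in the neurons and 0.419 in the comparison clusters. The folds just above and just below the threshold were nearly equal. The members nearest to it, beside Pde4b, Rbm19 and Adgrb1, had 75, 103 and 103 neuron fragments, and the bins just below it, beside Ces5a, Cilp and Ripor2, had 126, 70 and 98.

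Member bins took 1.41% of the fragments of cluster 0 (1.41 to 1.42%) and 2.30% of those of cluster 6 (2.29 to 2.31%). Both shares were fixed in part by the choice of bins. Cluster 9, which did not enter the choice, placed 1.398% of its fragments there (1.39 to 1.41%). Each comparison cluster placed between 0.267% (cluster 5, erythroid markers) and 0.394% (cluster 1, mesenchyme markers). The clusters on neither side of the rule were low as well, with 0.592% in cluster 2, 0.538% in cluster 4, 0.443% in cluster 3 and 0.109% in cluster 11. By library in order of stage, cluster 0 gave 1.13%, 1.39% and 1.45%, cluster 6 gave 1.66%, 2.32% and 2.34%, and cluster 9 gave 1.04%, 1.51% and 1.41%. E12.5 was the lowest library in each of the 3 clusters, and in every library all 3 lay above every other cluster. The bins were chosen on pooled fragments, of which E12.5 gave the fewest in clusters 0 and 6. Low shares at E12.5 thus follow in part from the choice and cannot be read as a change with stage.

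**Figure D1:**
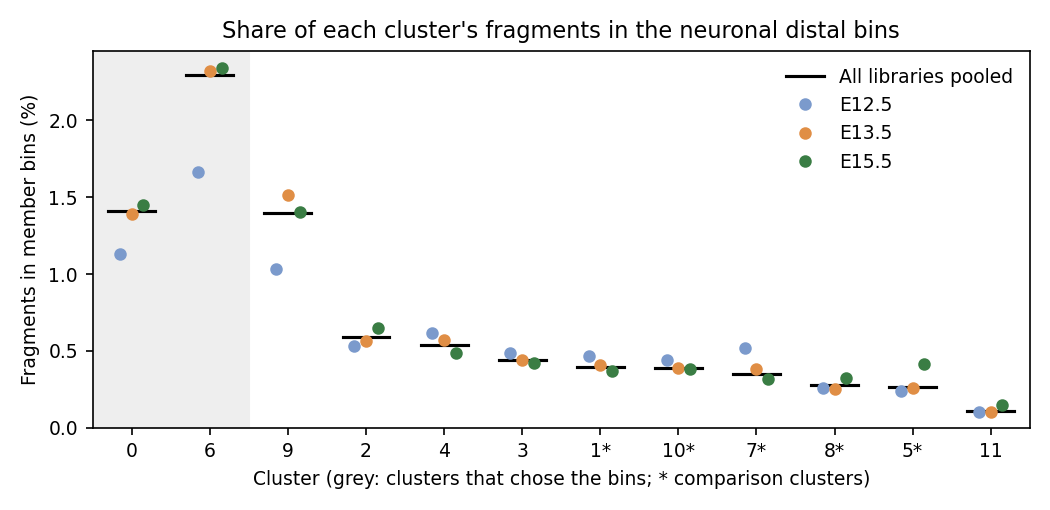
Percent of each cluster's fragments that fell in the 6779 member bins (y axis), by cluster (x axis). Points are the 3 libraries, 1 per stage, and lines are the pooled values. Clusters 0, 6 and 9 lie above 1% in every library, and all other clusters lie below 0.7%.

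Single nuclei differed widely. Among nuclei with at least 3000 fragments, the median share in member bins was 1.52% in cluster 0 (quartiles 1.11 and 2.08%), 2.45% in cluster 6 (1.45 and 3.65%) and 1.51% in cluster 9 (1.05 and 2.02%). In the comparison clusters the medians ran from 0.199% in cluster 5 to 0.381% in cluster 1. The ranges overlapped: the lowest nucleus of cluster 0 was at 0.607%, and the highest of clusters 1 and 7 were at 1.03% and 2.42%.

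The windows were centred where clusters 0 and 6 had the most insertions, so a central peak in these clusters follows from the centring. In members, cluster 6 reached 19.2 insertions per kb and 1000000 fragments, cluster 0 reached 10.8, cluster 9 reached 8.79 and the comparison clusters reached 1.74. In eligible bins that were not members the comparison clusters reached 9.29, and clusters 0, 6 and 9 reached 11.7, 15.2 and 11.2. The low comparison value in members follows from the rule. Of the neuron fragments in members, 68.3% were shorter than the DNA of a nucleosome, close to the 68.9% in the other eligible bins.

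**Figure D2:**
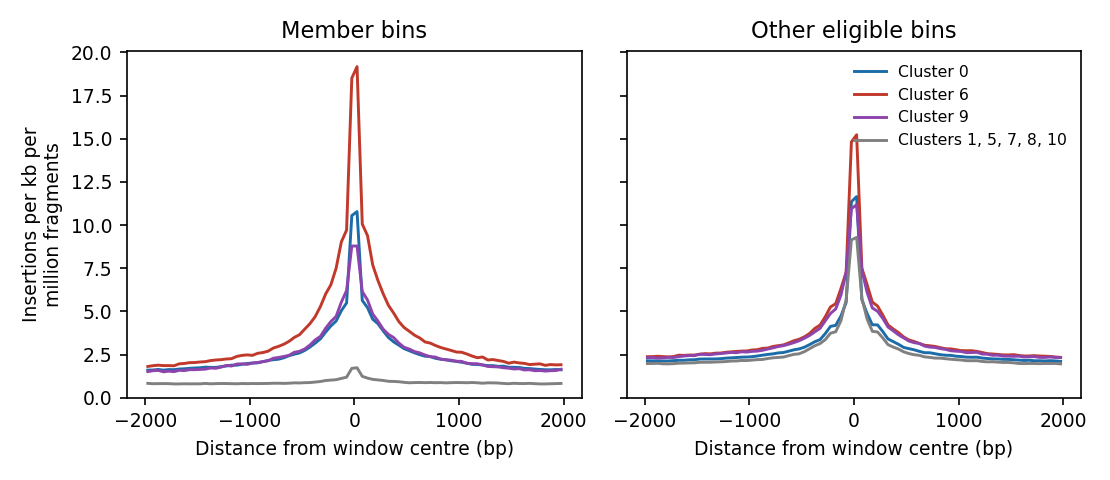
Insertions per kb and 1000000 fragments (y axis) by distance from the window centre (x axis, bp), averaged over the 6779 members (left) and the 28070 other eligible bins (right). Lines are clusters 0, 6 and 9 and the pooled comparison clusters. The comparison clusters peak at 1.74 in members and at 9.29 in the other eligible bins.

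To see whether the contrast held in nuclei that had not been used to choose the bins, the rule was applied without each library in turn and the ratio was read in the library left out. With E12.5 left out, 6564 bins qualified, and their pooled ratio of neurons to comparison clusters in E12.5 was 2.68 (2.61 to 2.75), against 1.05 in the other eligible bins. With E13.5 left out the ratio in E13.5 was 4.58 (4.53 to 4.63) over 2164 bins, against 1.27. With E15.5 left out it was 3.25 (3.21 to 3.29) over 2601 bins, against 0.962. The share of these bins at 3-fold or more in the left-out library was 49.0%, 68.9% and 52.4% in stage order, against 22.5%, 10.4% and 4.38% of the others. The clusters had been made from all nuclei, so this is no independent test.

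The members lay far from promoters. Their median distance to the nearest protein-coding TSS was 54.2 kb, against 16.9 kb for the other eligible bins. Of the members, 33.4% lay over 100 kb away and 3.14% over 500 kb away, against 10.98% and 0.374% of the others. Introns of protein-coding genes held 44.5% of members and intergenic DNA held 46.6%, shares close to the 45.8% and 41.8% of the others. Exons held 2.36% of members and 7.88% of the others. The windows of members were also poorer in G and C, with a median of 48.7% against 52.7%.

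The genes nearest to the most members included adhesion molecules, RNA-binding proteins and neuronal transcription factors. A nearest gene is a matter of position only, and it was not tested whether a bin acts on it. In all, 2420 of the 8218 protein-coding genes that were nearest to an eligible bin were nearest to at least 1 member, and 108 were nearest to 10 or more. Celf4, a neuronal RNA-binding protein (mm10 chr18:25477632-25754157), had the most, with 46 members of 90 eligible bins, and 37 of them lay inside the gene. Myt1l, a zinc finger factor of neurons (chr12:29528384-29923213), had 45 of 61, with 30 inside. Igsf21, a synaptic adhesion protein (chr4:140026846-140246784), had 44 of 65. Rbfox3, the splicing factor known as the neuronal antigen NeuN (chr11:118489762-118911597), had 40 of 89.

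Next came Auts2 (36 members), a gene of neuronal development, and Grik3 (34 members), a kainate receptor subunit. The adhesion molecules Dscaml1 (28), Cdh4 (25), Nfasc (25) and Dscam (18) and the splicing factor Rbfox1 (19) followed. The 18 members nearest to the SoxC factor Sox11 all lay outside the gene, at a median distance of 278.6 kb. Other leading genes were distant from all their members. The 36 members assigned to the kinase Vrk1 lay at a median of 257.8 kb and none was inside it. The same held for Mroh5 (20 members, median 311.8 kb), Cmpk2 (18, 293.1 kb), the lens crystallin Cryba4 (25, 156.7 kb) and Gm26897 (27, 109.6 kb). The 20 leading genes were completed by Rapgef5 (19), Tmem161b (18) and Tox3 (18). The cut at 20 broke a tie, since Zc3h12a was also nearest to 18 members.

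Summed over its 46 members, Celf4 had 78.2 FPM in cluster 0 in the E12.5 library, then 98.6 and 99.5 in the later ones. In cluster 6 it had 155.4, 137.8 and 87.9, and in the comparison clusters 24.3, 20.3 and 21.0. Cluster 6 was thus above cluster 0 at the earlier stages and below it at E15.5. The 45 members of Myt1l gave 69.1, 105.0 and 120.5 in cluster 0, 95.5, 134.1 and 125.2 in cluster 6, and 33.7, 16.3 and 18.8 in the comparison clusters. There the clusters differed little at E15.5, and both lay above the comparison at every stage. Cluster 6 at E12.5 rests on 5 nuclei throughout.

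**Figure D3:**
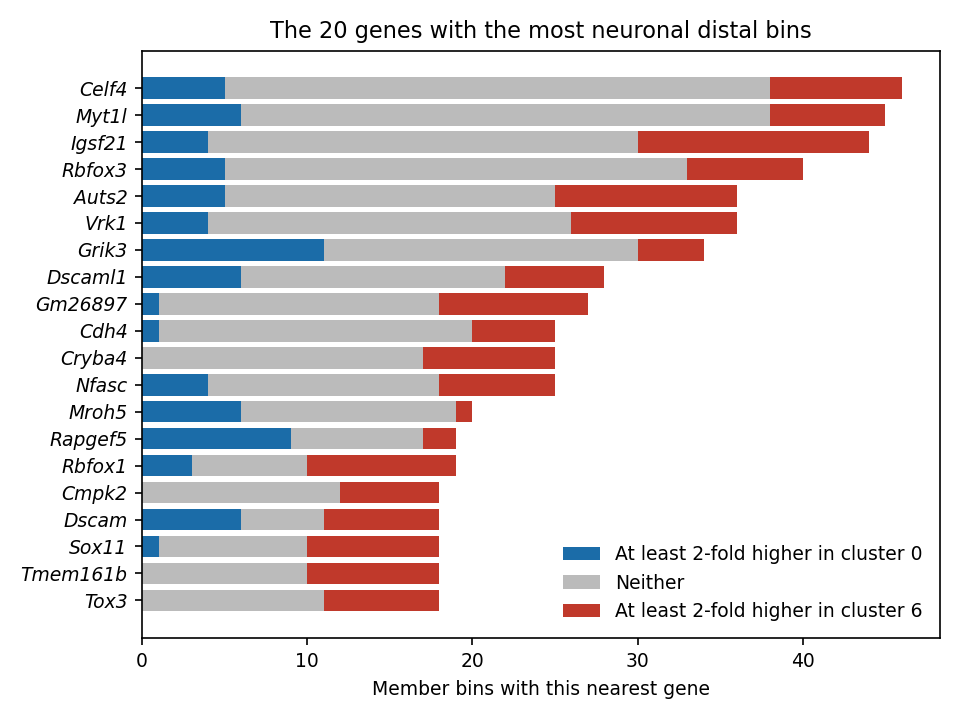
Number of member bins (x axis) for the 20 protein-coding genes nearest to the most members (y axis), with a tie at 18 members cut. Blue marks members at least 2-fold higher in cluster 0 than in cluster 6, red marks the opposite, and grey marks the rest. Grik3 has 11 blue and 4 red bins, and Cryba4 has none blue and 8 red.

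Promoter ratios were higher for genes with more distal members. Promoter bins were outside the rule but were read in the same nuclei. For genes that had eligible bins but no member, the median ratio of neurons over comparison clusters within 1 kb of the TSS was 0.867. It was 1.03 for genes with 1 member, 1.15 with 2 to 4, 1.44 with 5 to 9 and 1.53 with 10 or more. A promoter ratio of at least 2 was found for 3.33% of genes without a member and for 35.2% of those with 10 or more. Leading genes varied: the promoter of Myt1l was at 8.62 and that of Rbfox3 at 3.08, but that of Vrk1 was at 0.861 and that of Cryba4 at 0.808.

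The share of eligible bins that were members differed by gene list. Of the eligible bins nearest to pan-neuronal genes, 171 of 346 were members (49.4%), most of them at Celf4 (46), Myt1l (45) and Rbfox3 (40). Of those nearest to glutamate and GABA receptor genes, 43 of 72 were members (59.7%), 34 of them at Grik3. Axon guidance genes had 85 of 201 (42.3%), led by Robo1 (12), a receptor for Slit proteins, and by the ephrin receptor Epha4 and the plexin Plxna2 (10 each, those of Plxna2 at a median of 400.7 kb). GABAergic genes had 34 of 94 (36.2%) and broad neurogenic factors 119 of 400 (29.8%). Sensory and autonomic genes had 7 of 25 (28%), 6 of them by Isl1 at a median of 210.8 kb. Glutamatergic genes had 51 of 192 (26.6%), and spinal and hindbrain factors 26 of 105 (24.8%). All of these stand above the 19.5% of eligible bins that were members. Together the 8 neuronal lists accounted for 7.91% of members and 3.203% of the other eligible bins. The lists were chosen with earlier results of these data known.

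Lists for other tissues were mostly lower. None of 16 eligible bins at erythroid genes and none of 16 at endothelial genes was a member, and mesenchyme genes had 3 of 29 (10.3%). Neural progenitor genes had 20 of 92 (21.7%), near the background. The muscle list was an exception with 18 of 67 (26.9%), of which 15 lay by Mef2c and 2 by Pax7, both factors that the nervous system also uses. Liver, white blood cell and epithelial genes had 1 member each, of 6, 7 and 13 eligible bins, and Schwann cell genes had 2 of 11.

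Clusters 0 and 6 used the members unequally. Of the 6779 members, 841 (12.4%) were at least 2-fold higher in cluster 0 with the same direction at E13.5 and E15.5, and 2491 (36.7%) were at least 2-fold higher in cluster 6 by the same rule. Among all eligible bins these shares were 7.23% and 20.3%. The median log2 ratio of cluster 0 over cluster 6 was -0.50 in members and -0.18 in the other eligible bins, so eligible bins as a whole leaned to cluster 6 (-0.22), and cluster 6 placed 9.60% of its fragments in eligible bins against 7.23% in cluster 0. Scaling by the fragments in eligible bins changed the membership to 4282 bins and the split to 20.7% higher in cluster 0 and 31.7% higher in cluster 6, so that 39.5% instead of 25.2% of the called members were higher in cluster 0. The split also moved when a library was left out, which changes the membership and leaves the direction to be met in fewer libraries. Without E13.5 the shares were 17.8% and 24.6% of 2164 members, and without E15.5 they were 5.19% and 55.02% of 2601.

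The direction could be read in a library other than the one that called it. Membership rests on all libraries, the one read included, so repeat rates of members are set in part by the rule, and no difference from other bins is drawn from them. Of 2441 members at least 2-fold higher in cluster 6 at E13.5 (20 or more fragments there), 2231 (91.4%) were also higher in cluster 6 at E15.5, and the median ratio over all 2441 was 3.35. Of 602 members called higher in cluster 0 at E13.5, 493 (81.9%) were higher in it at E15.5, with a median ratio of 1.99 over all 602. In bins that were not members these shares were 77.5% for cluster 6 and 70.5% for cluster 0. Called at E15.5 and read at E13.5, the direction repeated in 93.8% of 2030 members for cluster 6 and 75.8% of 1109 for cluster 0, against 84.8% and 55.8% of the other bins. The same direction was not asked for at E12.5, but the fragments of that library entered the pooled 2-fold ratio and the membership. Reading it was therefore no held-out check. Of the called members with fragments at E12.5, 1093 of 1951 (56.0%) kept the direction for cluster 6 and 531 of 708 (75%) for cluster 0. At E12.5 cluster 6 has 5 nuclei and 450324 fragments, against 1214867 fragments in cluster 0. A bin with few fragments can be at 0 in cluster 6 through its low depth. The near-even split for cluster 6 and the higher share for cluster 0 therefore cannot be told apart from depth. Shares over other bins at E12.5 are not given.

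Genes of GABAergic neurons leaned to cluster 0. Of their 34 members, 14 (41.2%, against 12.4% of all members) were at least 2-fold higher in cluster 0 and none in cluster 6 (19 and none when the same members were scaled to eligible bins). Slc32a1, the vesicular GABA transporter (mm10 chr2:158610767-158615748), was nearest to 12 members, 7 of them higher in cluster 0. Summed, they had 27.2 FPM in cluster 0 at E12.5, then 36.3 and 27.7, against 39.97, 12.2 and 17.3 in cluster 6. Cluster 0 was therefore higher at the later stages and lower at E12.5, where cluster 6 has 5 nuclei. Gad2, which makes GABA, had 3 members, 1 higher in cluster 0, and Gad1 had 1, with 5.49 FPM in cluster 0 and 3.15 in cluster 6. Dlx2, a homeodomain factor of inhibitory precursors, had 3 members, none of them past the 2-fold mark.

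Genes of glutamatergic neurons leaned to cluster 6, with 31 of 51 members (60.8%, against 36.7% of all members) at least 2-fold higher there and 2 in cluster 0 (26 and 2 when scaled to eligible bins). Neurod6, a helix-loop-helix factor of cortical excitatory neurons (mm10 chr6:55677822-55681263), was nearest to 9 members, 8 of them higher in cluster 6. They summed to 11.1, 39.2 and 45.9 FPM in cluster 6 and to 9.05, 9.70 and 13.1 in cluster 0. The clusters were close at E12.5, where cluster 6 has 5 nuclei and both sums rest on few fragments, and far apart in the later libraries. All 5 members of its relative Neurod2 were higher in cluster 6, with sums of 39.97, 42.1 and 39.8 against 1.65, 11.3 and 12.04 in cluster 0. Fezf2, a factor of deep cortical layers, had 3 of 4 higher in cluster 6 than in cluster 0. Summed, its members were highest in cluster 9, with 32.7 FPM against 17.7 in cluster 6 and 5.59 in cluster 0. Eomes, a factor of intermediate progenitors, had 2 of 2 higher in cluster 6, and so had the vesicular glutamate transporter Slc17a6. Bcl11b, which both kinds of neuron use, had 11 members, 3 higher in cluster 6 and 1 in cluster 0, near the shares of all members.

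The other groups were mixed, and are read against the 36.7% of all members higher in cluster 6 and the 12.4% higher in cluster 0 (1913 and 1329 members when scaled to eligible bins). Axon guidance genes had 41 of 85 members (48.2%) higher in cluster 6 and 8 in cluster 0 (36 and 12 when scaled to eligible bins). Of these genes, the netrin receptor Unc5d had 6 of 7 higher in cluster 6 and Robo1 had 8 of 12. The members of Unc5d lay at a median of 616.9 kb. Broad neurogenic factors had 51 of 119 (42.9%) and 8 (36 and 13 scaled to eligible bins), spinal and hindbrain factors 9 of 26 (34.6%) and 0 (6 and 2 scaled), and sensory and autonomic genes 4 of 7 and 1 (3 and 2 scaled). The spinal list was thus near the share of all members. Pan-neuronal genes had no stable direction, with 32 of 171 higher in cluster 6 and 22 in cluster 0, but 20 and 37 when scaled to eligible bins. At Grik3 the balance was the other way, with 11 of 34 members higher in cluster 0 and 4 in cluster 6. Its list, glutamate and GABA receptor genes, had 11 of 43 higher in cluster 0, all of them at Grik3, and 9 in cluster 6 (16 and 3 scaled). Rapgef5 (9 and 2) and Mroh5 (6 and 1) had the same lean as Grik3, and all 3 genes kept it when scaled to eligible bins. Igsf21 (4 and 14 of 44) and Auts2 (5 and 11 of 36) were near the shares of all members, and scaled to eligible bins they were even, with 8 each and 7 each.

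The most extreme members had almost all their neuron fragments in 1 cluster. They are the ends of the ranking of all members and passed the minimum and the fold through that cluster, so their ratios are descriptions of chosen bins. The bin beside Rph3a, a synaptic vesicle protein (chr5:121016001-121017000, 6.41 kb from its TSS), had 1, 34 and 34 fragments in cluster 0 by stage, which is 0.823, 5.32 and 2.90 FPM, and none in cluster 6. Against the limit of 3 counts over cluster 6 it was at least 11.3-fold higher in cluster 0. Such a bound leaves out the counting error of the higher cluster, and the exact interval of this ratio begins at 8.98. The bin beside Actr3, a subunit of the actin-nucleating complex (chr1:125351001-125352000), had 0, 22 and 28 fragments in cluster 0 and none in cluster 6, at least 8.22-fold higher against the same limit, with an exact interval from 6.44 upward. It came from 29 nuclei. The bins by the potassium channel gene Kcna5 and by Myo16 were also at 0 in cluster 6 (48 and 40 fragments in cluster 0), and that of Lrrc52 had 78 in cluster 0 and 1 in cluster 6, a ratio of 38.5 (6.71 to 1539). In all, 4 of the 841 members higher in cluster 0 had no fragment in cluster 6.

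In the other direction, a bin 689.3 kb from the POU factor gene Pou3f3 (chr1:42006001-42007000) had 0, 22 and 25 fragments in cluster 6, or 0, 3.69 and 8.02 FPM, and none in cluster 0. Against the limit of 3 counts over cluster 0 it was at least 31.8-fold higher in cluster 6, and the exact interval of cluster 0 over cluster 6 ran from 0 to 0.0403. It was the only 1 of the 2491 members higher in cluster 6 without a fragment in cluster 0. An intronic bin of the adhesion gene Negr1 (chr3:156591001-156592000) had 0, 30 and 12 fragments in cluster 6 and 1 in cluster 0, a ratio of cluster 0 over cluster 6 of 0.0117 (0.000291 to 0.0691). Bins by Grm7 (68 and 3), Klhl29 (69 and 4) and Sel1l (60 and 3) completed the 5 highest. The last pair lay 1264 and 1372 kb from those genes.

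**Figure D4:**
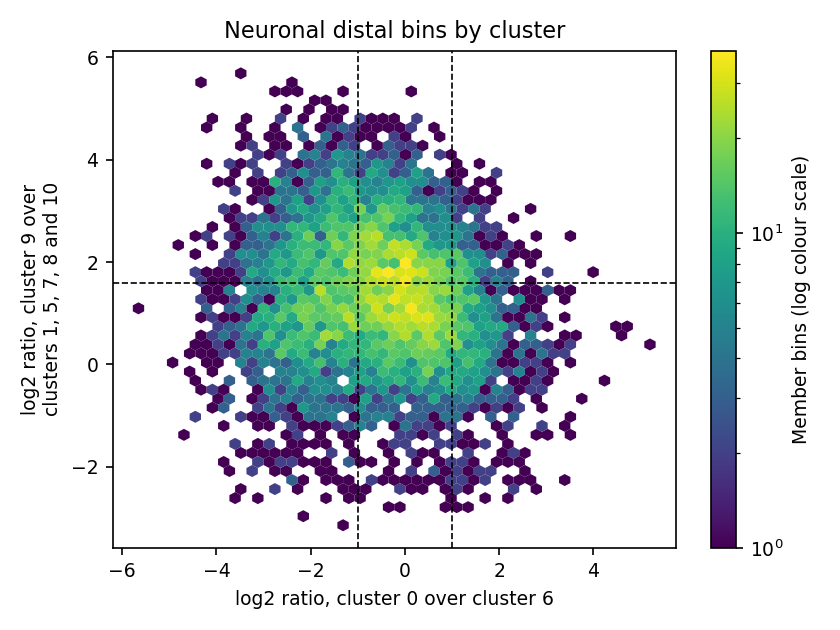
Each member bin by its log2 ratio of cluster 0 over cluster 6 (x axis) and of cluster 9 over the pooled comparison clusters (y axis), with 0.1 FPM added. Colour is the number of bins on a log scale, and dashed lines mark 2-fold either way and 3-fold. Members cover every quadrant, and more lie left of the left line (36.7% called higher in cluster 6) than right of the right line (12.4%).

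Cluster 9, with its progenitor markers, shared a part of the members. In 2843 members (41.9%) cluster 9 was itself at least 3-fold above the comparison clusters, against 14.5% of all eligible bins. The comparison clusters were used to choose the members, so low values there raise this count. In 1705 members (25.2%, against 11.4% of eligible bins) the level of cluster 9 was at least 3-fold below that of clusters 0 and 6, and 162 members had no fragment in it. Since members were chosen for high values in clusters 0 and 6, low ratios of cluster 9 to them follow in part from the rule. The median of that ratio was 0.570 in members and 0.872 in the other eligible bins.

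Members up in cluster 9 included most of those at progenitor genes. Neural progenitor genes had 19 of their 20 members at least 3-fold up in cluster 9, among them all 7 of Sox2, a factor of neural stem cells (mm10 chr3:34650405-34652461), and all 3 of Sox1. The members of Sox2 summed to 19.4, 33.4 and 28.3 FPM in cluster 9 by stage, 9.05, 19.2 and 16.6 in cluster 0, and 4.44, 21.3 and 27.0 in cluster 6. Cluster 9 was above both neuron clusters in each library, though close to cluster 6 at E15.5. Broad neurogenic factors had 76 of 119 members up in cluster 9 (63.9%, against 41.9% of all members), led by Pou3f3 (12 of 13) and Meis2 (10 of 11). These assignments are by position too: the members of Sox2 and Pou3f3 lay at medians of 184.9 and 437.3 kb, with 0 inside either gene. The muscle list had 13 of 18 up (72.2%). By position, 16 of the 18 members assigned to Tmem161b, 11 of the 15 of its neighbour Mef2c, and 19 of 27 by Gm26897 were also up.

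Members low in cluster 9 made up 26 of 85 at axon guidance genes, near the 25.2% over all members, of which 41.9% were up. Pan-neuronal genes had 50 of 171 low, also near that share, and 53 up, below the 41.9%, and Rbfox3 had 14 of 40 low. Robo2, a Slit receptor, had 5 of 7 low and none up, with sums of 2.33, 2.55 and 2.70 in cluster 9 against 1.65, 10.95 and 9.05 in cluster 0 and 2.22, 22.3 and 16.4 in cluster 6. Its level was alike in the 3 libraries of cluster 9, and in the neurons it was lowest at E12.5. The levels in cluster 9 and all those at E12.5 rest on few fragments, and at E12.5 cluster 9 was not below the neurons. The neuropilin gene Nrp2 had 5 of 7 low, Unc5d 4 of 7, and Cmpk2, by position, 10 of 18.

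The extremes were large. They are the ends of the ranking of all members by the ratio of cluster 9 to clusters 0 and 6. Their ratios are descriptions of chosen bins, and the counting intervals do not allow for that choice. A bin 881.3 kb from Pou3f3, in an intron of the non-coding gene Gm29260 (chr1:41814001-41815000), had 10.9, 18.1 and 29.0 FPM in cluster 9 by stage against 0.725 in cluster 0 and 4.197 in cluster 6, a ratio of 10.2 over the neurons (7.38 to 14.3). Bins by Arhgef4 (9.37-fold, 6.55 to 13.6), Nrg1 (8.46), Rhbg (7.46) and Grid1 (7.34) followed. Pooled over libraries, all 5 were more open in cluster 6 than in cluster 0. By library this did not always hold: the Grid1 bin had 1.28 FPM in cluster 0 and 0.642 in cluster 6 at E15.5, and at E12.5 the other 4 had no fragment in cluster 6. At the other end, the bin by Nectin1, an adhesion protein (chr9:43700001-43701000), had 130 neuron fragments from 84 nuclei and none in cluster 9, so the neurons were at least 10.1-fold higher against the limit of 3 counts over cluster 9. The exact interval of cluster 9 over the neurons ran from 0 to 0.124. Bins by Reg3b, Sobp, Ythdf3 and Pard3 were likewise at 0, with bounds of 8.66, 8.66, 7.96 and 6.73 against that limit and exact intervals of the ratio up to 0.144, 0.144, 0.157 and 0.187.

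Few members differed 2-fold between stages. Of 2344 members with 40 or more fragments in cluster 0 over E13.5 and E15.5, 181 (7.72%) were at least 2-fold higher at E15.5, against 7.44% of all eligible bins compared, and 86 (3.67%, against 2.78%) were at least 2-fold higher at E13.5. In the other eligible bins these shares were 7.36% and 2.53%. The median log2 ratio of E15.5 over E13.5 in cluster 0 was 0.09 in members and 0.15 in the others. In cluster 6, 146 of 1768 members (8.26%, against 6.77%) were higher at E15.5 and 170 (9.62%, against 9.82%) at E13.5, where the other eligible bins had 5.90% and 9.94%, with a median of -0.06 in both sets of bins.

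Single bins differed more. Those named are the ends of the ranking of the compared members by this ratio, so their ratios are descriptions of chosen bins. The counting intervals do not allow for that choice. The fragment minimum was a sum of raw counts over both stages, so bins high at E15.5, the deeper library in cluster 0, passed it more easily. The bins named as higher at E15.5 passed it mostly through that library. An intronic bin of Nbea, a trafficking protein of synapses (chr3:55741001-55742000), had 4, 2 and 49 fragments in cluster 0 by stage, or 3.29, 0.313 and 4.18 FPM. The ratio of E15.5 over E13.5 was 13.4, with a counting interval of 3.51 to 113.5, and the level at E12.5, on 4 fragments, was closer to that of E15.5. The bin by Phyhipl (chr10:70789001-70790000) had 0, 2 and 44 fragments, a ratio of 12.01 (3.13 to 102.2). Bins by Sall3 (3, 3 and 44 fragments), C8b (8, 4 and 46) and Adgrd1 (1, 4 and 37) followed. In that order they had 2.47, 6.59 and 0.823 FPM at E12.5 and 3.76, 3.93 and 3.16 at E15.5. The C8b bin was thus highest at E12.5, on 8 fragments. In cluster 6 the bins of Phyhipl and Sall3 were lower at the later stage: they had 1.84 and 9.89 FPM at E13.5 and 0.963 and 7.06 at E15.5. In the other direction, the bin by Vrk1 (chr12:105929001-105930000) had 34 fragments at E13.5 against 12 at the later stage (5.32 and 1.02 FPM), a ratio of 0.193 (0.0908 to 0.381), with 2.47 at E12.5. Bins by Rbm19 (0.256), Mex3b (0.273), Elovl5 (0.273) and Myo3b (0.289) came next. In cluster 6 the bin of Vrk1 hardly differed, with 2.01 FPM at E13.5 and 1.93 at E15.5 (12 and 6 fragments). That of Rbm19 was lower at E15.5 (7.21 and 5.13 FPM). The bins of Mex3b (9.05 and 9.95) and Elovl5 (1.17 and 1.28, on 7 and 4 fragments) were slightly higher. That of Myo3b had 0 and 1.93 FPM, on 0 and 6 fragments.

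The members shared sequence features that the rule had not used. The homeodomain core TAATTA was found in 20.7% of their windows and 7.16% of those of the other eligible bins, and the POU octamer ATGCAAAT in 7.33% and 1.93%. Since members were poorer in G and C, windows of like composition were compared. Below 40% GC the homeodomain core was in 42.8% of 500 members and 22.5% of 733 others, and from 55% GC upward in 9.48% of 1044 and 3.17% of 10003. The octamer was in 16.4% and 4.91% in the former band and in 2.11% and 1.00% in the latter. Among the sequences above, the Actr3 window holds 3 homeodomain cores and an octamer. Further motifs more common in members were the SOX core ACAATG (17.7% and 12.1%), the ONECUT core ATCAAT (10.8% and 6.78%) and the PBX and MEIS core TGACAG (34.0% and 25.6%). The CTCF core CCANNAGGG was less common (5.92% and 11.9%). At like composition the SOX core was in 22.2% and 17.6% below 40% GC and in 11.49% and 8.73% from 55% upward, and the CTCF core in 2.6% and 8.19%, and 9.96% and 13.52%. The ONECUT and the PBX and MEIS cores, the KLF and SP box GGGCGG (9.56% and 15.6%) and the EBF site CCCNNGGGA (5.10% and 7.70%) were not compared at like composition, so these gaps cannot be told apart from base content. Both strands were searched, and a match is a string of letters, not a bound site.

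E-boxes differed between members of the neuron clusters. CAGATG was found in 36.7% of members and 28.9% of the others, and CATATG in 10.3% and 4.95%, while CAGCTG was in 25.9% and 26.8%. At like composition CAGCTG was more common in members below 50% GC, with 16.8% and 10.2% below 40% GC, 21.7% and 16.5% from 40 to 45%, and 24.8% and 20.6% from 45 to 50%, and from 55% GC upward it was in 33.2% of both. Among the 2491 members higher in cluster 6, CAGATG was in 53.0% and CATATG in 18.1%. Among the 841 higher in cluster 0 these were in 19.98% and 3.21%, below the eligible bins as a whole (30.4% and 5.98%). The Pou3f3 window highest in cluster 6 holds CATATG at 2 places. The NFI motif TTGGCA went the same way, with 32.2% in members higher in cluster 6 and 12.7% in those higher in cluster 0. Bins outside the members had the same split: CAGATG was in 45.3% of those higher in cluster 6 and 23.8% of those higher in cluster 0. The SOX core (22.1% against 16.8%) and the GATA core AGATAA (18.2% against 11.7%) were more common on the side of cluster 0, whereas TAATTA (19.1% and 21.7%) and the octamer (7.85% and 7.19%) hardly differed.

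**Figure D5:**
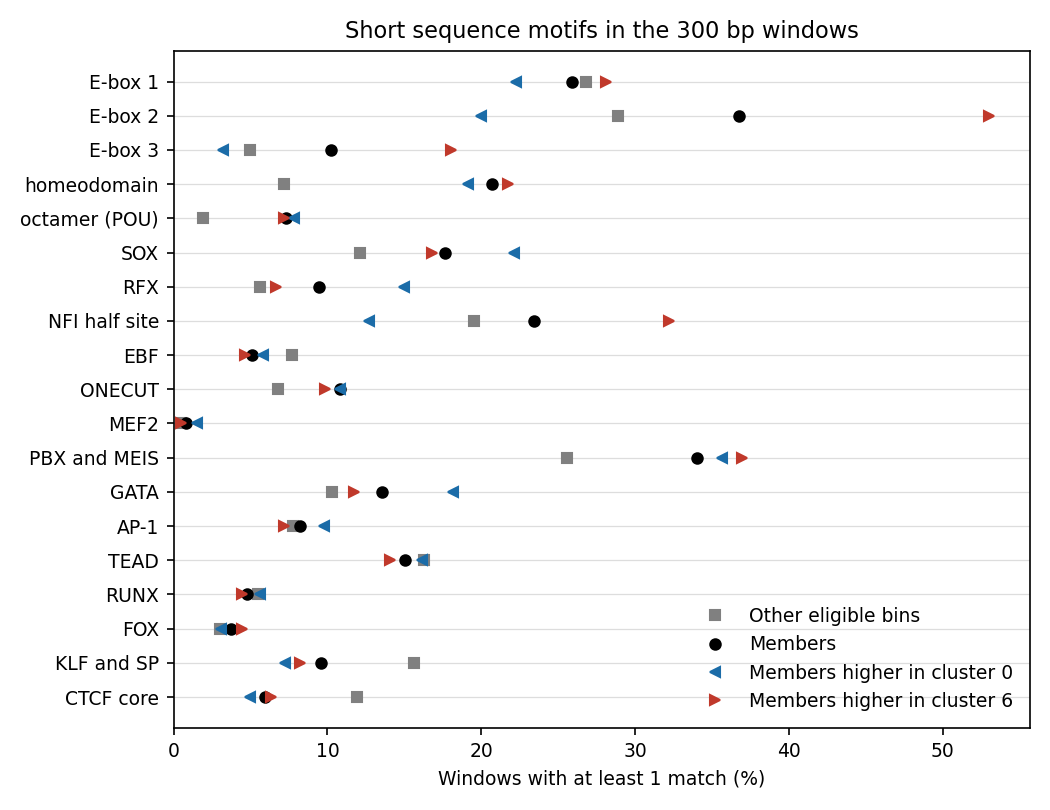
Percent of 300 bp windows with at least 1 match to a short motif (x axis) for 19 motifs (y axis). E-box 1 is CAGCTG, E-box 2 is CAGATG and E-box 3 is CATATG. Circles are members, squares are other eligible bins, and triangles are members higher in cluster 0 (blue, left) or cluster 6 (red, right). The largest gap between the triangles is at E-box 2, at 19.98% and 53.0%.

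The RFX motif GTTGCCA, which can overlap the NFI letters by the string TGCCA, had another pattern. It was in 9.44% of members and 5.62% of the others, and in 14.98% of members higher in cluster 0 against 6.66% of those higher in cluster 6. Its share was higher in members with more neuron fragments. It was 7.81% (6.93 to 8.76%) in members with 40 to 59 fragments, 8.42% with 60 to 79, 11.8% with 80 to 159 and 21.9% (17.1 to 27.3%) in the 270 members with 160 or more. In other eligible bins of the same bands it ran from 5.32% to 6.70%. Of the 10 members with the most fragments, 7 held it, among them those of Snx10 and Tob1 printed above.

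The same motif was frequent in members that were higher at E15.5 in cluster 0: 29.8% of the 181 held it, against 4.65% of the 86 that were higher at E13.5 and 14.1% of all 2344 compared. Outside the members it was in 11.46% of 602 bins higher at E15.5 and 3.38% of 207 higher at E13.5. The Phyhipl window is an example with the motif, and the Nbea window has none.

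Each of the 10 members with the most neuron fragments had a fragment in between 199 and 241 of the 401 neuron nuclei. The bin beside Snx10 (chr6:51592001-51593000, 47.9 kb from its TSS) had 531 fragments from 238 nuclei, with 14.0, 15.8 and 21.5 FPM in cluster 0 by stage and 19.99, 16.3 and 17.7 in cluster 6. The comparison clusters had 3.98 pooled. Tob1 (481 fragments), Nyap1 (472), Cdk5r1 (465), Kcnq3 (438), Tank (435), Upk2 (423), Cstad (409), Foxo6 (404) and T2 (402) came next. Their ratios of cluster 0 over cluster 6 ran from 0.432 by Tank (0.356 to 0.523) to 1.16 by T2 (0.933 to 1.45). The bin nearest to Cdk5r1, the activator of the neuronal kinase Cdk5, lies in an intron of Myo1d (chr11:80504001-80505000) and had 14.8, 10.3 and 18.6 FPM in cluster 0 and 13.3, 16.4 and 18.9 in cluster 6. An intronic bin of the potassium channel gene Kcnq3 (chr15:66239001-66240000) had the highest fold over the comparison clusters among these 10, at 17.7.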

How the data were processed

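Nuclei from whole-embryo sections were sorted after 7-AAD staining and profiled by 10x single-cell ATAC v1.1 in 3 libraries, 1 per stage. The authors deposited fragment lists, in which each unique fragment carries the count of read pairs behind it, made with Cell Ranger ATAC 2.0.0 on mm10, and a cell table with counts per nucleus and cluster numbers from Seurat 4.1.0 and Signac 1.6.0 (per the submitters' processing notes and the study's methods). Cluster numbers, barcodes and fragment counts of that table were read, and its other 20 columns were not used.

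Here each unique fragment was counted once, at its midpoint, in 1 kb bins more than 2 kb from any TSS of GENCODE, and levels were scaled to all fragments of the nuclei on the chromosomes used. Nuclei were the 1879 of the table. Fragments in nuclei numbered 8603028, 66925016 and 39513357 by stage (91.5%, 76.4% and 74.4% of each library). No doublet caller was run and no doublet was removed. Nearest genes were protein-coding genes by TSS, and sequence came from RefSeq GRCm38. The calls between clusters 0 and 6 asked for a 2-fold ratio in the fragments pooled over all libraries. They also asked for the same direction in E13.5 and E15.5, and stage ratios asked for 40 fragments over both of these. Computation used Python 3.11.15, numpy 2.4.6, scipy 1.17.1 and matplotlib 3.10.9, and the selection and intervals were tested on simulated data.

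The clusters were built from the same nuclei and each stage is 1 library, so no test was made. The members, the 17 gene lists and the 19 motifs were chosen with earlier results of these data known. The genes named were the 20 with the most members, where a tie at 18 members was cut, and listed genes with a member. The bins named were the 10 with the most neuron fragments, the 5 most extreme each way between clusters 0 and 6, in cluster 9 and between stages, and the 3 on each side of the threshold. The windows printed, the groups of members by number of fragments and the genes cited for cluster preference were picked from these after their values were seen. Alternatives changed the minimum, the fold, the added constant, the bins, the weighting, the scaling, the nuclei and the libraries. Results for some listed genes are not reported here.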

Additional observations from a re-analysis of the deposited data

How the results depend on the processing

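The labels give no replicate numbers and no result comes from a test, so no fit with a replicate block was made. Clusters were measured side by side within each library, and their values are given by library. Under 16 alternative settings, 110 values were recomputed, of which 59 were counted as unchanged (a number of members within 1.5 times the main one, or another value within the main value's interval) and 51 moved. A minimum of 20 fragments gave 16874 members, with 32.3% 3-fold up in cluster 9, 15.8% higher in cluster 0, 26.2% higher in cluster 6 and 47.99% with CAGCTG or CAGATG. A minimum of 80 gave 1853, with 53.2%, 8.74%, 40.8% and 57.9% in that order and 6.91% by a gene of a neuronal list. A fold of 2 gave 13292, with 30.8%, 10.7%, 30.6%, 52.4% and 7.00%. A fold of 5 gave 2041, with 57.5% up in cluster 9, 43.2% higher in cluster 6 and 55.4% with an E-box. Adding 0.5 FPM gave 2505, with 35.8%, 9.38%, 40.4% and 56.3%. Asking for 3-fold over each comparison cluster gave 2190, with 54.8% up in cluster 9, 41.7% higher in cluster 6 and 8.63% by a listed gene. Equal weight for clusters 0 and 6 gave 8.56% higher in cluster 0, 44.3% higher in cluster 6 and 56.3% with an E-box. Scaling to eligible bins gave 4282 members, with 39.1%, 20.7% and 31.7%, and a median log2 stage ratio of 0.0155 in cluster 0. For the same members, the scaling to eligible bins, added for the gene lists after seeing the data, turned the lean of pan-neuronal genes to cluster 0 (37 against 20). Bins shifted by 500 bp gave 40.6% up in cluster 9. Leaving out 1 library at a time gave 2164 to 6564 members, 42.9 to 53.7% up in cluster 9, 5.19 to 17.8% higher in cluster 0, 24.6 to 55.02% higher in cluster 6, 51.4 to 61.2% with an E-box and 6.61 to 7.89% by a listed gene. The lowest number of members came without E13.5. The causes of these shifts were not tested. The number of nuclei limits what single bins can show: at E12.5 cluster 6 has 5 nuclei, and 2 members rest on fewer than 20 neuron nuclei.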

Other observations

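Some members joined into longer open stretches. A pair of stretches reached 7 bins. The first, chr14:64594001-64601000 (mm10), lay 46.8 kb from the TSS of the kinesin gene Kif13b, and held 652 neuron fragments. Its level was 24.5 FPM in cluster 0, 18.8 in cluster 6, 3.14 in cluster 9 and 2.84 in the comparison clusters, so that cluster 9 was close to the other tissues. The other, in Celf4 (chr18:25656001-25663000), had 12.8, 20.9, 5.98 and 2.42 FPM in the same order.

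Other stretches were shared with cluster 9. A stretch of 5 bins 30.0 kb from Scrt2, a zinc finger factor of new neurons (chr2:152047001-152052000), held 820 fragments, with 48.8 FPM in cluster 6, 25.1 in cluster 9 and 18.4 in cluster 0. A stretch of 5 bins between Tmem161b and Mef2c, in the non-coding gene Gm17750 (chr13:84056001-84061000), was higher in cluster 9 (31.5 FPM) than in cluster 6 (20.5) or cluster 0 (9.68). A stretch by Robo3, a receptor of crossing axons (chr9:37454001-37459000), had 21.97 FPM in cluster 9, 20.7 in cluster 6 and 12.1 in cluster 0. All these are descriptions of bins chosen by their values, and the lengths depend on the fixed bins.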
